A study of Mus musculus with 16 samples.

Results

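Cholesterol synthesis and its control were followed through 28 genes, listed by name, of 13006 genes in the table. The list was made with earlier results of these data known. All 28 were measured, and all 28 were among the 12918 genes that passed the filter on low counts. They comprise 8 genes of the mevalonate pathway, 12 of squalene and sterol synthesis, 6 of the SREBP2 control system and 2 that move or esterify sterol inside the cell. The members encode synthesis, control and intracellular handling of cholesterol, and lipoprotein uptake is not described here.

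The RNA was poly(A) RNA from the liver of mice labelled Humanized PXR-CAR-CYP3A4/3A7, a genotype shared by all groups and named for the drug-sensing receptors PXR and CAR and for human drug-metabolising enzymes. EM mice received ethinylestradiol (EE), a synthetic estrogen used to induce cholestasis, at 10 mg/kg by subcutaneous injection for 7 days, together with MI763F. MI763F is a code name for a ligand of CAR, and it was given orally from day 2, for 6 days, at a dose of 2.5 mg/kg. EV mice received EE without MI763F, CM mice received MI763F without EE, and CV mice received propylene glycol vehicle. Each group had 4 libraries. The labels give neither age nor sex, do not state what the EV and CV mice were gavaged with, if anything, and do not link libraries to separate animals. The p-values therefore reflect only how much these samples varied, which may be technical. The comparisons ask what EE changed, what MI763F changed with and without EE, and how far the combined treatment stood from vehicle.

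Cholesterol is built from acetyl-CoA through mevalonate, isoprenoid pyrophosphates, squalene and lanosterol. Transcription of these enzymes is driven by SREBP2, a membrane-bound factor made by Srebf2. When sterol in the endoplasmic reticulum is low, SCAP carries SREBP2 to the Golgi, where the site-1 and site-2 proteases release its active part. When sterol is plentiful, INSIG proteins hold SCAP back. The liver makes much of the body's cholesterol and is the organ that turns it into bile acids.

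Library totals ran from 14115384 to 21473227 estimated counts, and levels are given as CPM, counts scaled to a common library size, with TMM factors. The smallest deposited values are lower for longer genes, the pattern of values already divided by gene length. The exact scaling is not given, so levels are not ranked between genes, and ratios of genes are compared only across libraries. Markers of hepatocytes were present in all 16 libraries. A CM library, replicate 2, stood apart for the genes studied here. It was the lowest of its group for 19 of the 20 synthesis genes, with a median distance of -1.48 log2 units from the group median, while over all genes that distance was 0.01. Its summed level was 539 CPM for the mevalonate genes and 876 CPM for the sterol genes, against 1400 to 2240 and 1900 to 2590 CPM in the other CM libraries. Its hepatocyte marker sum was 124000 CPM and its macrophage marker sum 809 CPM, against 96900 to 98500 and 397 to 579 CPM in the other CM libraries. Alb weighs most in the hepatocyte sum, with 83500 CPM in this library and 56100 to 61700 CPM in the others. Ttr and Ahsg were also highest there, Hnf4a was lowest, and Trf, Serpinc1, Fgb and Cps1 lay within the range of the others. The part of these markers in its low values was not tested. EM replicate 1 was the lowest of its group for 19 of the 20 synthesis genes by a smaller distance, a median of -0.38 log2 units. Counts of the 28 genes past the threshold are also given without these libraries for the main comparisons.

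**Figure D1:**
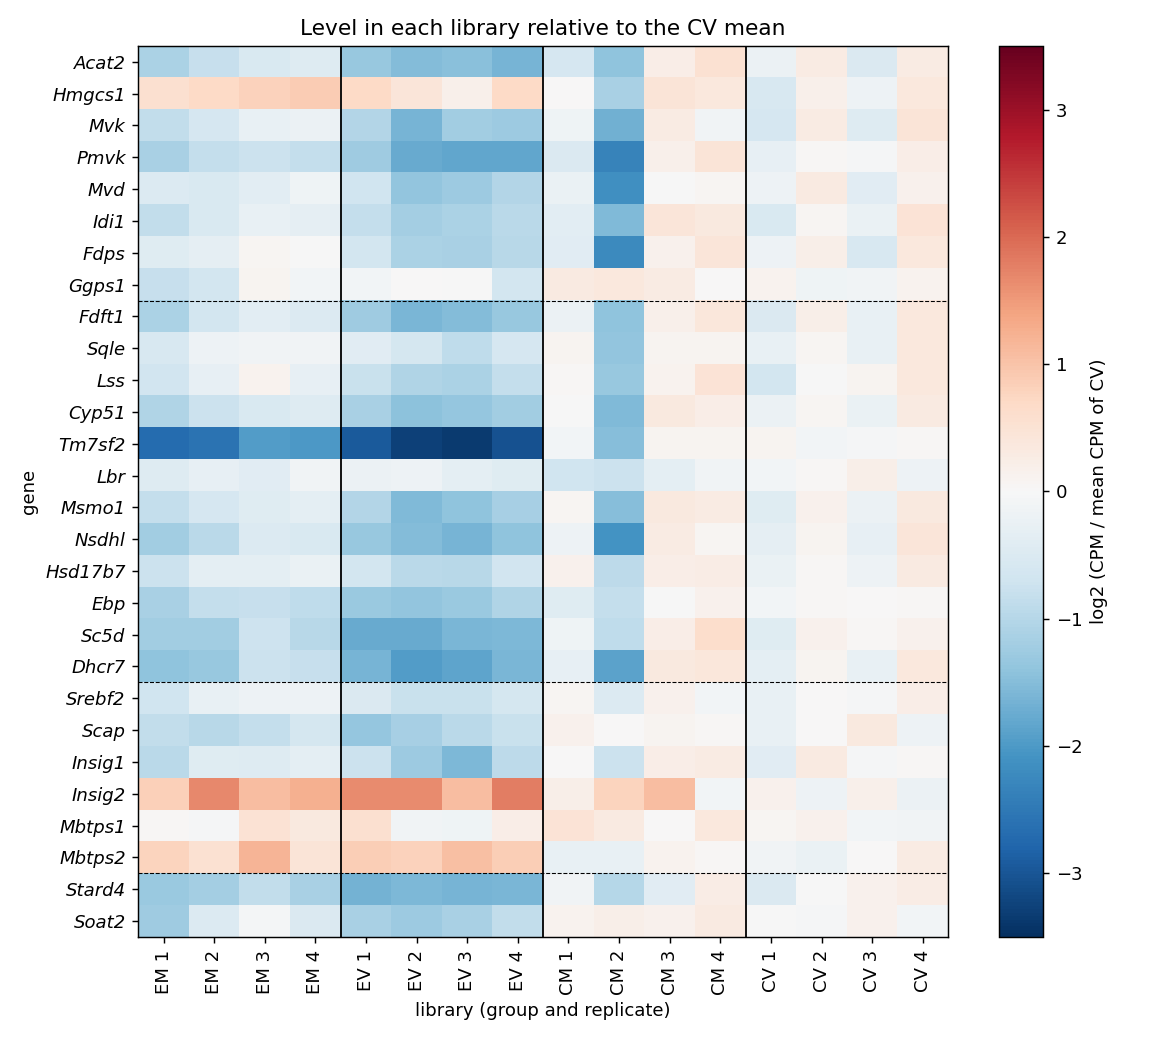
Level of each of the 28 genes in each of the 16 libraries, as the log2 ratio of its CPM to the mean CPM of the CV group (colour scale); rows are genes grouped by role and columns are libraries grouped as EM, EV, CM and CV. Most synthesis genes are low in all EV libraries and in CM replicate 2, Tm7sf2 is low in all EM and EV libraries, and Hmgcs1, Insig2 and Mbtps2 run the other way in EE-treated livers.

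The sequences of 4 genes are shown because the results turn on them: Hmgcs1, the early enzyme that did not fall, Tm7sf2, which fell most among the members, and the INSIG pair, which moved apart. RefSeq windows of 300 bases, 250 before to 50 after the annotated start, on build GRCm38.p6, were matched for 23 of the 28 members. Stard4, Fdft1, Sqle, Soat2 and Fdps had no entry. Each window is written 5′ to 3′ on the gene's strand, with matches to the sterol regulatory element (SRE) core TCACCCCAC and to the NF-Y box CCAAT, or ATTGG on the other strand, in capitals.

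Hmgcs1, chr13:119690101-119690400, forward strand: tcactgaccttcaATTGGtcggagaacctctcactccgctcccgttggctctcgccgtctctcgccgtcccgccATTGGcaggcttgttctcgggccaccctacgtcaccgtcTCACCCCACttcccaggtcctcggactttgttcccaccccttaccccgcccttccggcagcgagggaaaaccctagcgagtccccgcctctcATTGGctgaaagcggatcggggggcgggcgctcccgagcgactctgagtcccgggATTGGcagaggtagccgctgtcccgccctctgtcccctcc

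Tm7sf2, chr19:6067801-6068100, reverse strand: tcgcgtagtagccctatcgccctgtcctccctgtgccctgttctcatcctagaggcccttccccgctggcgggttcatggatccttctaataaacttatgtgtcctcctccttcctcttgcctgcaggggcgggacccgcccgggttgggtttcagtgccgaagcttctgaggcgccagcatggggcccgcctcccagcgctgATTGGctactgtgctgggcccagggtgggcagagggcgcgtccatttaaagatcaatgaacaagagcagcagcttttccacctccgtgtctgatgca

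Insig1, chr5:28071162-28071461, forward strand: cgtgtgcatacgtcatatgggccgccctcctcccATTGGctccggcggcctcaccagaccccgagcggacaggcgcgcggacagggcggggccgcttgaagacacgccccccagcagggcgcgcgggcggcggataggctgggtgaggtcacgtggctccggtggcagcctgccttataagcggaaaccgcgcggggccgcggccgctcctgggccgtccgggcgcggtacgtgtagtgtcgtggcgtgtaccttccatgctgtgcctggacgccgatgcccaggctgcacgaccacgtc

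Insig2 start 1, chr1:121332540-121332839, reverse strand: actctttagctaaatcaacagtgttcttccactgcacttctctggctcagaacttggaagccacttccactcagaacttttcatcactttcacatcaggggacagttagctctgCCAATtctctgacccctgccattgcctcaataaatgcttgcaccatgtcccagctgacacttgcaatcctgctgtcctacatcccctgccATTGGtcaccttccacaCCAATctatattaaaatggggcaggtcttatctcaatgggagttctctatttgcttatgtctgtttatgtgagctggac

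Insig2 start 2, chr1:121327975-121328274, reverse strand: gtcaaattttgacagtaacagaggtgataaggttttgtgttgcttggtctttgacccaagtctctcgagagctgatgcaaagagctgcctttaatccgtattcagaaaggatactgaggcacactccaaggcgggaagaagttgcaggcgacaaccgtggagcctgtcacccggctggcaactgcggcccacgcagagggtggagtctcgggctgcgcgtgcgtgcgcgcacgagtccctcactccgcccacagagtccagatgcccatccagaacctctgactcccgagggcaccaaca

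The motifs were searched on both strands as exact letters. The SRE core TCACCCCAC, known from SREBP target promoters, occurred in 0.614% of the 27025 genes with a window, which have 32851 windows. Among the 23 member genes it was in 1, Hmgcs1, with its first base at position -137 from the start. The looser TCACNCCAC, which contains it, was found in 1.44% of genes and again in Hmgcs1 alone among the members. The palindrome TCACGTGA, an SREBP site of the E-box kind, was in 1.12% of genes and in 0 of the member genes. Boxes for factors that act together with SREBPs were common: CCAAT, bound by NF-Y, was present in 82.6% of the member genes against 41.1% of all 27025 genes, and GGGCGG, bound by Sp1, in 87% against 38.2%. The 27025 genes were not limited to those measured in these livers, so these shares do not compare the members with other expressed genes. Hmgcs1 carried 4 CCAAT boxes in its window and Tm7sf2 and Insig1 carried 1 each. Insig2 has 3 annotated starts. The first window holds 3 CCAAT boxes, while the windows of the other starts, 4565 and 4911 bases downstream, have none. In mouse liver Insig2 is known to be made from alternative first exons, of which the liver form is called Insig2a. Counts per gene do not separate these transcripts. These matches describe letters only, and SREBP sites that differ from these spellings were not searched.

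EE lowered most of the synthesis pathway. In EV livers against CV livers, 20 of the 28 genes fell, 2 rose and 6 did not pass the threshold (edgeR quasi-likelihood test, Benjamini-Hochberg adjusted p under 0.05 over 12918 genes). The median log2 fold change was -1.08, against 0 over all genes. EE changed a large part of the transcriptome: 50.4% of all genes passed the same test, 25.5% higher and 24.9% lower. All 4 EV libraries lay below all 4 CV libraries for 23 of the 28 genes, against 22.7% of all genes. With CM replicate 2 left out of the shared fit, 22 genes fell and 3 rose, and with EM replicate 1 left out the counts were again 20 and 2.

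EV livers also differed in cell markers, and their part in these results was not tested. The 8 hepatocyte markers had a median log2 fold change of -1.36, beside -1.08 for the 28 genes, and 6 of the 8 fell past the threshold. Their summed level was 44400 to 54700 CPM in EV livers, against 97100 to 120000 CPM in CV livers. Of 12 macrophage markers 10 rose, with sums of 2300 to 2690 CPM in EV livers and 383 to 985 CPM in CV livers. All 8 tested proliferation markers rose, as did 5 of 5 erythroid, 6 of 9 endothelial, 5 of 8 lymphocyte and neutrophil and 2 of 4 cholangiocyte markers, while 4 stellate and fibroblast markers rose and 1 fell of 9. No defining marker was at 0 in any library except Aurkb, a mitotic kinase, which was at 0 in 2. In bulk liver RNA, fewer hepatocytes and less RNA per hepatocyte cannot be told apart. With library totals in place of TMM factors the median of all genes in EV against CV moved to 0.49, and among the members 4 then rose and 14 fell. Mvk, Mvd, Idi1, Lss, Hsd17b7 and Srebf2 lost their calls under that scaling, and Ggps1 and Lbr, which had not passed, turned positive at 0.32 and 0.20.

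The mevalonate genes fell at most steps, with an exception at the second. Acat2, the cytosolic thiolase that joins acetyl-CoA units, had 45.4, 39.7, 41.2 and 37 CPM in EV livers, against 99, 139, 79.8 and 140 CPM in CV livers. Its log2 fold change was -1.49 ± 0.325 (SE, n = 4 libraries per group; edgeR adjusted p = 0.00155). Hmgcs1, the HMG-CoA synthase that uses the product of Acat2, had 608, 504, 426 and 614 CPM in EV livers, against 258, 427, 332 and 489 CPM in CV livers. These ranges overlap, and its log2 difference of 0.51 ± 0.27 did not pass (edgeR adjusted p = 0.127). It passed with library totals, at a log2 value of 1 with an edgeR adjusted p of 0.00554, and with CM replicate 2 left out of the shared fit, at 0.51 with 0.0272. The ratio of Hmgcs1 CPM to Acat2 CPM within a library was 10.3 to 16.6 in EV livers and 2.61 to 4.17 in CV livers, ranges that do not overlap.

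Downstream, Mvk and Pmvk phosphorylate mevalonate in turn, and Mvd decarboxylates the product to isopentenyl pyrophosphate. Pmvk had 59.1, 41.1, 39.6 and 39.7 CPM in EV livers, against 114, 143, 135 and 163 CPM in CV livers, a log2 fold change of -1.63 ± 0.397 (edgeR adjusted p = 0.00348). Mvk changed by -1.26 and Mvd by -1.07 on the log2 scale, both past the threshold and both with EV libraries wholly below CV libraries. Idi1, the isomerase of that product, changed by -1 ± 0.329 (edgeR adjusted p = 0.0199), a call lost without CV replicate 4 (adjusted p = 0.0694) or EV replicate 2 (adjusted p = 0.0518).

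The branch point enzymes moved less evenly. Fdps, which makes farnesyl pyrophosphate, had 388, 280, 276 and 308 CPM in EV livers, against 534, 691, 409 and 787 CPM in CV livers. Although these values do not overlap, its log2 difference of -0.95 ± 0.39 missed the threshold (edgeR adjusted p = 0.0552) and passed with DESeq2 (adjusted p = 0.0174), with the groups compared alone (edgeR adjusted p = 0.00312) and with CM replicate 2 left out of the shared fit (edgeR adjusted p = 0.00191). Ggps1, which makes geranylgeranyl pyrophosphate for protein prenylation and so serves a non-sterol branch, had 4.68 to 7.39 CPM in EV livers and 6.57 to 8.04 CPM in CV livers. Its difference of -0.16 ± 0.194 did not pass, and 257 of its exon bases overlap Arid4b on the opposite strand in the M21 annotation.

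Of the 12 genes that carry farnesyl pyrophosphate to cholesterol, 10 fell in EV livers. Fdft1, squalene synthase, the first committed step to sterols, had 65.3, 50.6, 53.7 and 62 CPM in EV livers, against 108, 179, 128 and 199 CPM in CV livers. Its log2 fold change was -1.41 ± 0.307 (edgeR adjusted p = 0.0015). Fdft1 shares 774 exon bases with Ctsb on the opposite strand, a gene whose own log2 fold change was 0.96, and how strand was handled is not given in the sources used here. Sqle, squalene epoxidase, a rate-limiting oxygenase, had 90.8, 77.8, 63.9 and 79.4 CPM in EV livers, against 99.2, 125, 98.7 and 154 CPM in CV livers. The values do not overlap, and its log2 difference of -0.61 ± 0.258 did not pass (edgeR adjusted p = 0.0612). It passed with DESeq2 (adjusted p = 0.033), with the groups compared alone (edgeR adjusted p = 0.00906) and with CM replicate 2 left out of the shared fit (edgeR adjusted p = 0.00319).

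Lss, which closes squalene epoxide to lanosterol, changed by -0.94 ± 0.298 (edgeR adjusted p = 0.0165), a call lost without CV replicate 4 (adjusted p = 0.0539). Cyp51, the demethylase of lanosterol, changed by -1.28, Msmo1, which removes the next methyl groups, by -1.28, Nsdhl, its partner dehydrogenase, by -1.47, and Hsd17b7, the ketosteroid reductase of the same complex, by -0.80 on the log2 scale. All passed the threshold with EV libraries wholly below CV libraries. Cyp51 shares 166 exon bases with Akap9 on the opposite strand.

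The largest fall was in Tm7sf2, a sterol C14 reductase. It had 29.4, 23.3, 22.2 and 27.1 CPM in EV livers, against 240, 211, 219 and 230 CPM in CV livers. The level in EV livers was 0.113 times that in CV livers (log2 fold change -3.14 ± 0.289; edgeR adjusted p = 6.54e-07), and over all alternative settings it stayed between -3.23 and -2.66. Tm7sf2 shares 532 exon bases with Vps51 on the same strand, which changed by 0.11 ± 0.131 and did not pass, so reads in the shared part cannot be assigned with certainty. Lbr, the lamin B receptor, has the same C14 reductase activity at the nuclear envelope. It had 8.26, 8.41, 7.49 and 7.09 CPM in EV livers, against 8.9, 9.78, 11.1 and 8.43 CPM in CV livers, a log2 difference of -0.29 ± 0.144 that did not pass (edgeR adjusted p = 0.11). The ratio of Tm7sf2 to Lbr was 2.77 to 3.81 in EV livers and 19.8 to 27.3 in CV livers.

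The last steps fell together. Ebp, the isomerase that moves the ring double bond, had 111, 105, 111 and 132 CPM in EV livers, against 258, 283, 279 and 281 CPM in CV livers (log2 fold change -1.26 ± 0.162, edgeR adjusted p = 1.3e-05). Sc5d, the lathosterol desaturase, had 145, 146, 162 and 167 CPM in EV livers, against 365, 552, 504 and 552 CPM in CV livers (-1.67 ± 0.24, edgeR adjusted p = 3.84e-05). Dhcr7, the last reductase of the Kandutsch-Russell route to cholesterol, had 34.8, 27.5, 29.6 and 35.4 CPM in EV livers, against 84.4, 115, 90.2 and 139 CPM in CV livers (-1.75 ± 0.362, edgeR adjusted p = 0.00106). For each of the 3 genes the highest EV library was below the lowest CV library.

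**Figure D2:**
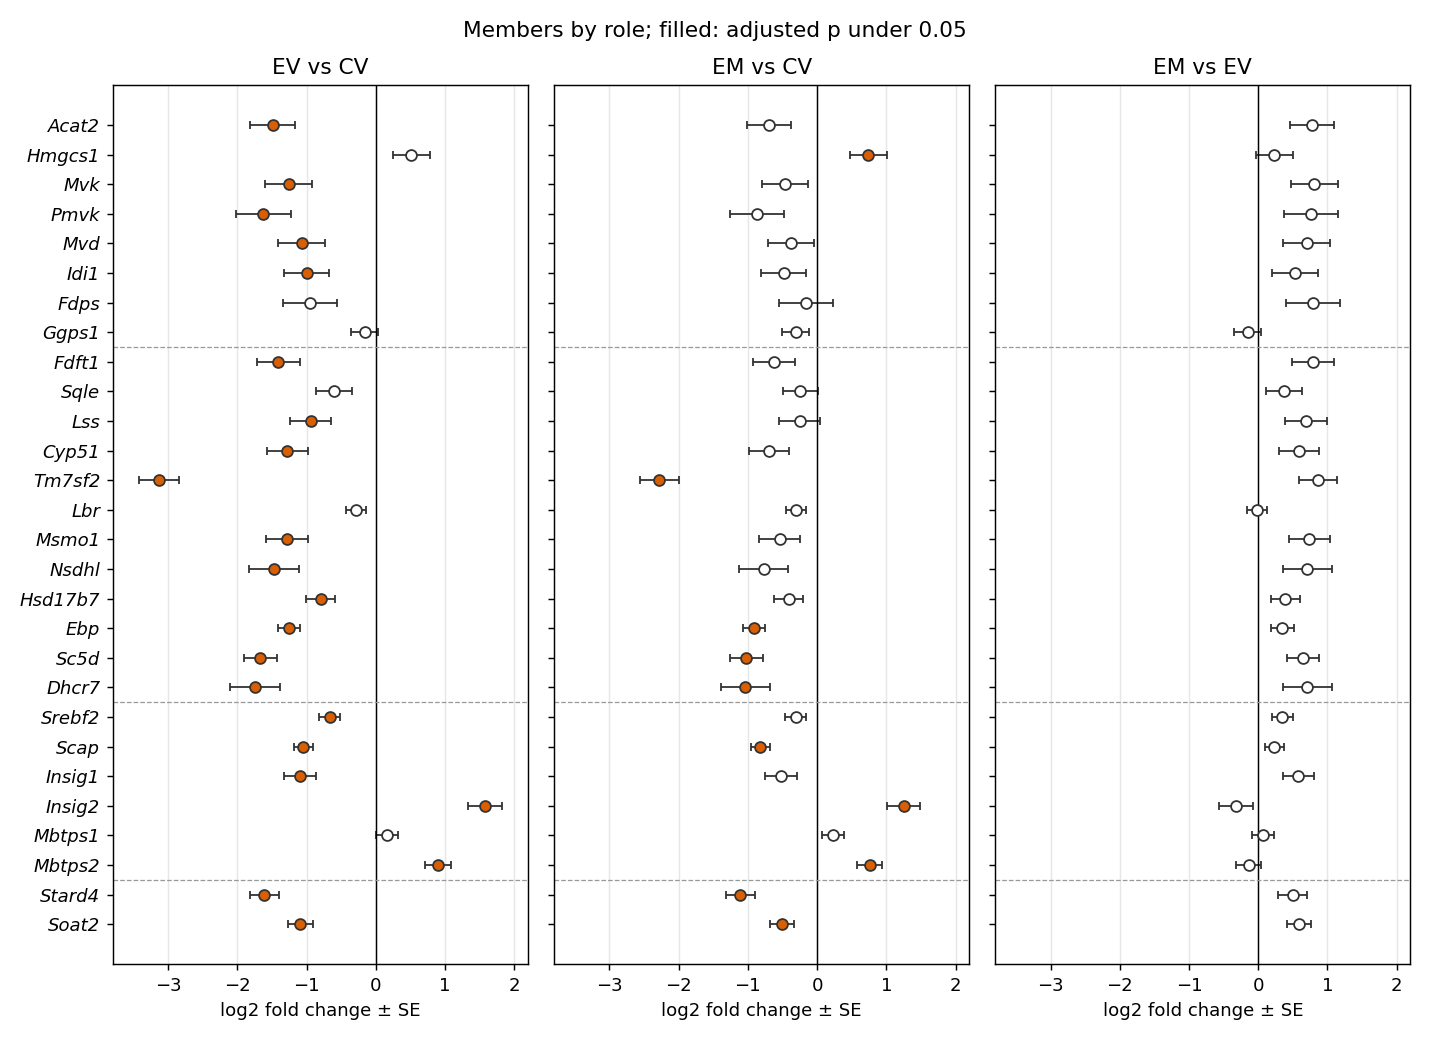
Log2 fold change of each gene (points; bars are 1 SE either way) for EV against CV, EM against CV and EM against EV, 4 libraries per group; dashed lines divide the roles and filled points have an edgeR adjusted p under 0.05. EV against CV has 22 filled points, EM against CV has 10 and EM against EV has 0, although 24 of 28 points lie above 0 in the EM against EV panel.

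The control genes split. Srebf2 fell to 29.6, 24.2, 24.4 and 27.2 CPM in EV livers, against 35.1, 42.3, 40.3 and 49.5 CPM in CV livers (log2 fold change -0.67 ± 0.149, edgeR adjusted p = 0.00167), and did not pass with library totals, at -0.18. Scap, the escort of SREBP2, had 19.1, 21.6, 25.2 and 28.4 CPM in EV livers, against 40.4, 48.9, 62.1 and 43.4 CPM in CV livers (-1.05 ± 0.138, edgeR adjusted p = 1.63e-05). The highest EV value lay well under the lowest CV value.

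Of the proteases, Mbtps1, which makes the first cut in SREBP2, had 20 to 33.1 CPM in EV livers and 20.6 to 24.9 CPM in CV livers, and its log2 difference of 0.16 ± 0.163 did not pass. With library totals it was 0.64 and passed (edgeR adjusted p = 0.00292). Mbtps2, which makes the second cut, rose to 4.22, 4.04, 4.83 and 4.25 CPM in EV livers, against 2.14, 1.99, 2.34 and 2.83 CPM in CV livers (0.90 ± 0.185, edgeR adjusted p = 0.000915). The groups did not overlap.

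The INSIG genes, whose products both retain SCAP, moved in opposite directions. Insig1, known as an SREBP target, had 236, 166, 136 and 212 CPM in EV livers, against 303, 501, 392 and 409 CPM in CV livers (log2 fold change -1.10 ± 0.229, edgeR adjusted p = 0.000991). Insig2 had 669, 666, 451 and 742 CPM in EV livers, against 237, 187, 243 and 184 CPM in CV livers (1.57 ± 0.245, edgeR adjusted p = 8.27e-05). Both changes held under all 18 alternative settings. The ratio of Insig2 to Insig1 CPM was 2.84 to 4.01 in EV livers and 0.374 to 0.781 in CV livers.

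Both genes for sterol handling fell. Stard4, a soluble carrier of cholesterol between membranes, had 16.2, 17, 16.4 and 16.6 CPM in EV livers, against 36, 50.3, 56.3 and 60.2 CPM in CV livers (log2 fold change -1.61 ± 0.212, edgeR adjusted p = 1.64e-05). Soat2, the cholesterol esterifying enzyme of hepatocytes and enterocytes, had 17.6, 16.2, 17.9 and 21.4 CPM in EV livers, against 38.7, 37.7, 43 and 36.5 CPM in CV livers (-1.09 ± 0.176, edgeR adjusted p = 0.000109). The 4 EV libraries of Stard4 lay close together, at 16.6 ± 0.333 CPM (SD, n = 4), while CV livers averaged 50.7 ± 10.6 CPM (SD, n = 4).

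**Figure D3:**
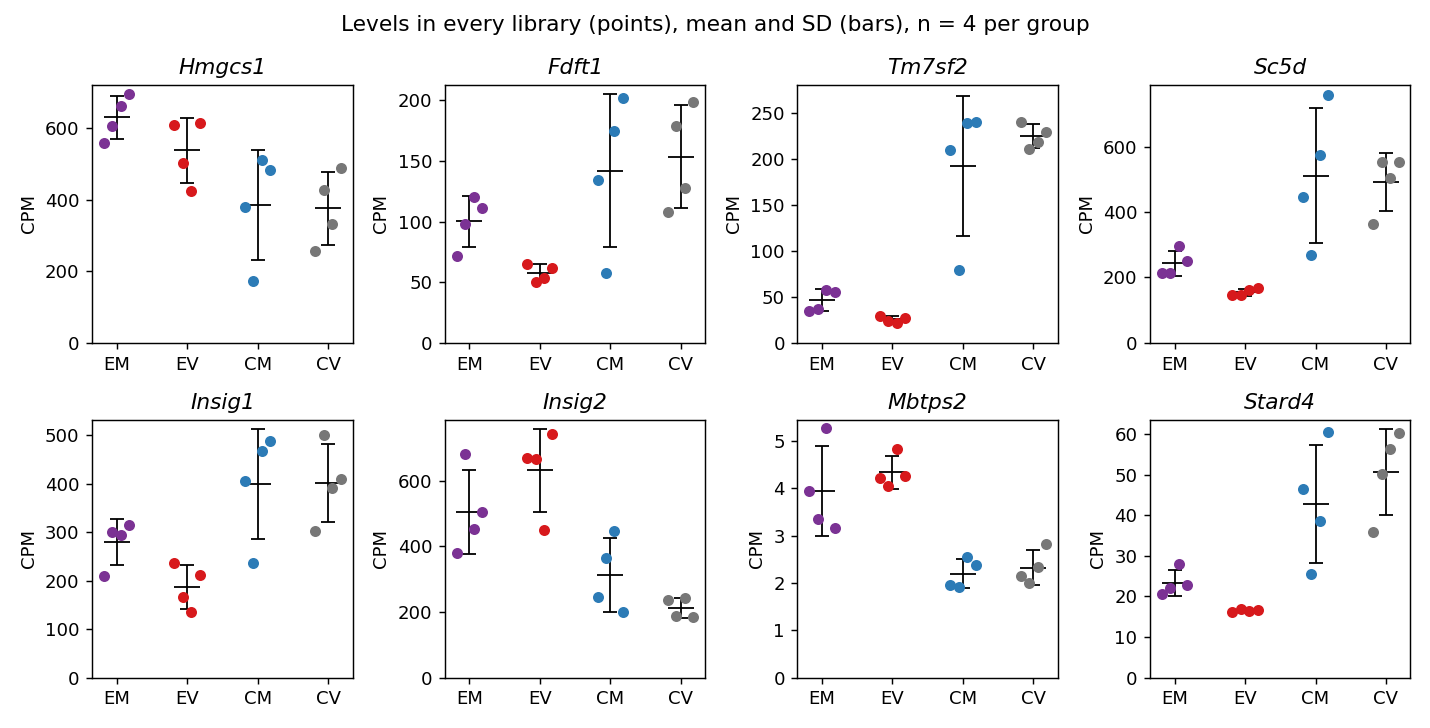
CPM of 8 genes in every library (points), with the group mean and SD (bars), for EM, EV, CM and CV, 4 libraries per group; every axis starts at 0. Fdft1, Tm7sf2, Sc5d, Insig1 and Stard4 are lower in EV than in CV, Insig2 and Mbtps2 are higher, and the lowest CM point of Hmgcs1, Fdft1, Tm7sf2, Sc5d, Insig1 and Stard4 is replicate 2.

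With MI763F added to EE, most of these genes stood higher than with EE alone, but none passed the test across all genes. In EM livers against EV livers 0 of 28 genes passed with edgeR, while 12 had an unadjusted p under 0.05, all of them higher in EM livers. Over all genes 1.69% passed, and 12.7% had an unadjusted p under 0.05, 8.92% in the higher direction. The log2 difference was positive for 24 of the 28 genes with a median of 0.58, and 0.70 without EM replicate 1. For 14 genes all 4 EM libraries lay above all 4 EV libraries, against 6.56% of all genes. DESeq2 passed 2 genes, Tm7sf2 and Soat2, beside 559 of all 12903 genes. A fit to these groups alone passed 6, namely Acat2, Pmvk, Fdps, Fdft1, Msmo1 and Sc5d, beside 228 of all 12800 genes. Leaving CM replicate 2 out of the shared fit passed 4 (Mvd, Cyp51, Tm7sf2 and Msmo1), beside 320 of all 12948 genes. Leaving out EM replicate 1 passed Soat2, beside 445 of all 12945 genes.

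Tm7sf2 had 34.9, 37.2, 57.9 and 55.5 CPM in EM livers, against 29.4, 23.3, 22.2 and 27.1 CPM in EV livers. The EM values lay wholly above the EV values, and the log2 difference was 0.86 ± 0.272 (edgeR adjusted p = 0.145). Fdft1 had 71.8, 98.3, 120 and 111 CPM in EM livers, against 50.6 to 65.3 CPM in EV livers, a difference of 0.79 ± 0.304 (edgeR adjusted p = 0.261). Sc5d had 213, 214, 296 and 250 CPM in EM livers, against 145 to 167 CPM in EV livers, a difference of 0.65 ± 0.235 (edgeR adjusted p = 0.226).

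The early enzymes also had higher values in EM livers. Acat2 had 53.4, 64.8, 79.1 and 83.7 CPM in EM livers, against 37 to 45.4 CPM in EV livers, and differed by 0.78 ± 0.321. Mvk, Pmvk, Mvd and Fdps differed by 0.81, 0.76, 0.70 and 0.79 on the log2 scale, each without overlap and none past the threshold. Hmgcs1 overlapped between the groups, with 560 to 695 CPM in EM livers and 426 to 614 CPM in EV livers, and so did Idi1 and Sqle.

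Soat2 had the smallest edgeR p of the members in this comparison. It had 16.4, 28.2, 37.5 and 27.6 CPM in EM livers, against 17.6, 16.2, 17.9 and 21.4 CPM in EV livers. EM replicate 1 lay within the EV range while the other 3 EM libraries lay above it. The log2 difference was 0.59 ± 0.175 (edgeR adjusted p = 0.119), and without EM replicate 1 it was 0.77 and passed (edgeR adjusted p = 0.00278). That library also had the highest sums of proliferation markers, 110 CPM against 29.9 to 31.7 CPM in the other EM libraries, and of macrophage markers, 3150 CPM against 1890 to 2240 CPM. The part of these cells in the result was not tested. The hepatocyte marker sum was 51600 to 65600 CPM in EM livers and 44400 to 54700 CPM in EV livers, and 1 of 8 hepatocyte markers passed, higher in EM livers. Of these 8 markers, 5 had an unadjusted edgeR p under 0.05, all higher in EM livers. Their median log2 difference was 0.40, and their part in the member values was not tested.

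Insig2, Mbtps2, Ggps1 and Lbr were the 4 genes without a positive difference between EM and EV livers. Insig2 had 380, 683, 452 and 506 CPM in EM livers, against 669, 666, 451 and 742 CPM in EV livers, ranges that overlap (log2 difference -0.32 ± 0.24, edgeR adjusted p = 0.649). Insig1 had 209, 301, 295 and 314 CPM in EM livers, against 136 to 236 CPM in EV livers, and differed by 0.58 ± 0.228 (edgeR adjusted p = 0.274). The Insig2 to Insig1 ratio was 1.53 to 2.27 in EM livers and 2.84 to 4.01 in EV livers, which do not overlap, and that of Tm7sf2 to Lbr was 4.77 to 7.99 in EM livers and 2.77 to 3.81 in EV livers.

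**Figure D4:**
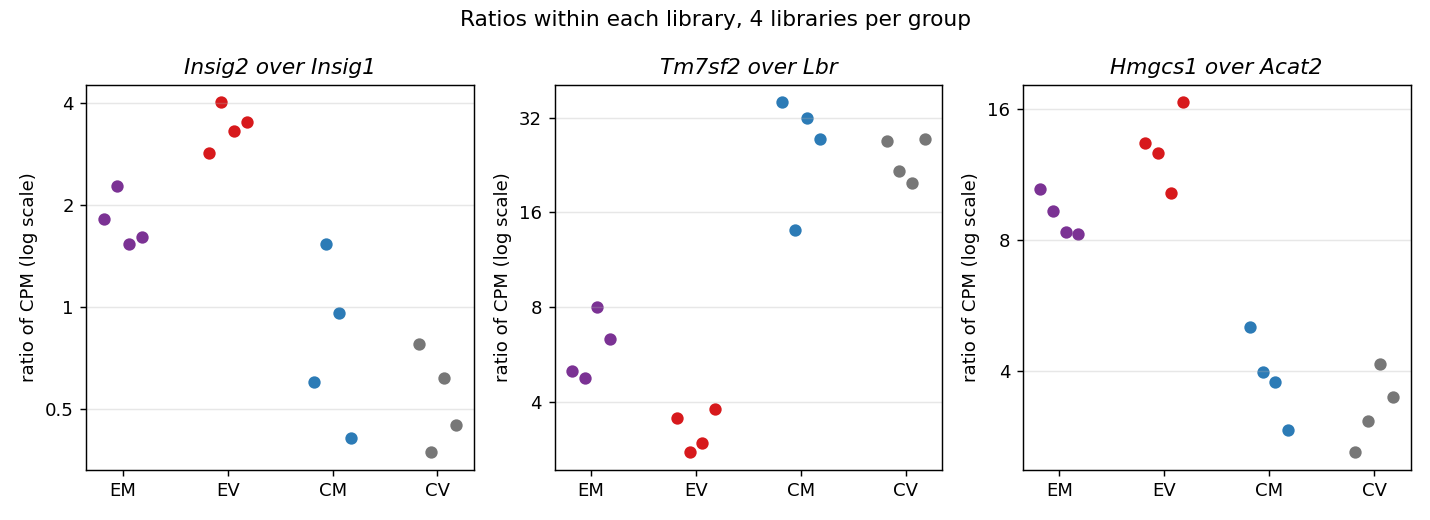
Ratio of CPM within each library (points, log axis) for Insig2 over Insig1, Tm7sf2 over Lbr and Hmgcs1 over Acat2, with 4 libraries in each of EM, EV, CM and CV. In all 3 panels the EM points lie on the CV side of the EV group, without overlap except for Hmgcs1 over Acat2 (8.29 to 10.5 in EM, 10.3 to 16.6 in EV).

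Against vehicle, the combined treatment left fewer genes past the threshold. In EM livers against CV livers 10 of the 28 genes passed, 7 lower and 3 higher, with a median of -0.49. Over all genes 40.6% passed, 20.7% higher and 20% lower. The 7 that fell were Tm7sf2, Ebp, Sc5d, Dhcr7, Scap, Stard4 and Soat2. All 7 were among the 20 that fell in EV livers, in a comparison that shares the CV libraries. The count was 16 (3 higher, 13 lower) in a fit to the groups compared alone and 18 (3 higher, 15 lower) with CM replicate 2 left out of the shared fit. Without EM replicate 1 it was 8 (2 higher, 6 lower). With library totals 4 rose and 5 fell, with the median of all genes at 0.37. Cell markers differed as well, and their part was not tested. The 8 hepatocyte markers had a median log2 fold change of -0.94, and 7 of them fell past the threshold. Their sums were 51600 to 65600 CPM in EM livers and 97100 to 120000 CPM in CV livers. Of 12 macrophage markers 10 rose, with sums of 1890 to 3150 CPM in EM livers and 383 to 985 CPM in CV livers, and all 8 tested proliferation and 5 erythroid markers rose.

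Among the members Tm7sf2 was again the most reduced, with EM livers at 0.206 times the CV level (log2 fold change -2.28 ± 0.279, edgeR adjusted p = 1.93e-05). Its 34.9 to 57.9 CPM in EM livers lay far under the 211 to 240 CPM in CV livers. Stard4 had 20.6, 22.1, 28 and 22.9 CPM in EM livers, against 36 to 60.2 CPM in CV livers (-1.11 ± 0.209, edgeR adjusted p = 0.000601). Scap had 26.6, 24.9, 27.3 and 31.6 CPM in EM livers, against 40.4 to 62.1 CPM in CV livers (-0.82 ± 0.137, edgeR adjusted p = 0.000238). Ebp changed by -0.91 and Sc5d by -1.02, and these 5 calls held under all 17 alternatives. Dhcr7 at -1.04 and Soat2 at -0.51 each lost the call without some single libraries, with edgeR adjusted p up to 0.0836 for Dhcr7 and 0.0744 for Soat2, and with library totals, at -0.68 (0.125) and -0.13 (0.556).

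The genes that rose were Hmgcs1, Insig2 and Mbtps2. Insig2 changed by 1.25 ± 0.244 (edgeR adjusted p = 0.000826), with 380 to 683 CPM in EM livers and 184 to 243 CPM in CV livers. Mbtps2 had 3.95, 3.35, 5.28 and 3.17 CPM in EM livers, against 1.99 to 2.83 CPM in CV livers (0.76 ± 0.185, edgeR adjusted p = 0.00408). Hmgcs1 had 560, 606, 663 and 695 CPM in EM livers, against 258, 427, 332 and 489 CPM in CV livers, without overlap (0.74 ± 0.271, edgeR adjusted p = 0.039). That call was lost without CV replicate 1 or 3 or any 1 EM library, with adjusted p up to 0.112. The upstream Acat2 had 53.4 to 83.7 CPM in EM livers against 79.8 to 140 CPM in CV livers and did not pass.

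Without EE, MI763F moved none of the 28 genes past the threshold. In CM livers against CV livers 0 passed with edgeR, under any alternative and with DESeq2, and 2 had an unadjusted p under 0.05. Over all genes 0.0929% passed and 10.5% had an unadjusted p under 0.05. The median log2 difference was -0.1, and 0.14 without CM replicate 2. Insig2 had 245, 364, 448 and 200 CPM in CM livers, against 237, 187, 243 and 184 CPM in CV livers. These ranges overlap, and its log2 difference was 0.56 ± 0.241 (edgeR adjusted p = 0.425). Of the 4 CM libraries 3 lay above all CV libraries, replicate 1 only by 245 against 243 CPM. Lbr had 5.86, 5.64, 7.48 and 8.78 CPM in CM livers, against 8.9, 9.78, 11.1 and 8.43 CPM in CV livers, a log2 difference of -0.46 ± 0.145 (edgeR adjusted p = 0.267). Tm7sf2 had 210, 79.8, 239 and 240 CPM in CM livers, and without replicate 2 its mean was 230 ± 17 CPM (SD, n = 3), against 225 ± 12.5 CPM in CV livers (SD, n = 4).

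Among mice given MI763F, EE lowered Tm7sf2, Ebp, Sc5d, Scap, Stard4, Soat2 and Ggps1 and raised Insig2 and Mbtps2, and the count of genes past the threshold depended on CM replicate 2. In EM livers against CM livers 9 of the 28 genes passed, with 38.1% of all genes passing, 19.4% higher and 18.6% lower. Of the genes that passed 7 fell and 2 rose, including 3 of the 12 squalene and sterol synthesis genes, and the median was -0.5. Without CM replicate 2, 18 passed, 16 lower and 2 higher, with a median of -0.67. Added calls included Dhcr7 at -1.22 (edgeR adjusted p = 0.000423), Pmvk at -0.97 (0.00161), Cyp51 at -0.87 (0.000558), Acat2 at -0.83 (0.0158) and Fdft1 at -0.76 (0.012), while Ggps1 no longer passed. Without EM replicate 1, 8 passed, 6 lower and 2 higher. With library totals 4 rose and 3 fell, with the median of all genes at 0.38. Cell markers moved in this comparison too, and their part was not tested. The 8 hepatocyte markers had a median log2 fold change of -0.8, and 6 of them fell past the threshold. Their sums were 51600 to 65600 CPM in EM livers and 96900 to 124000 CPM in CM livers. Of 12 macrophage markers 11 rose, with sums of 1890 to 3150 CPM in EM livers and 397 to 809 CPM in CM livers, and all 8 tested proliferation and 5 erythroid markers rose.

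Tm7sf2 changed by -2.05 ± 0.276 between EM and CM livers (edgeR adjusted p = 4.76e-05), Sc5d by -1.07 ± 0.236, Scap by -0.89 ± 0.137 and Mbtps2 by 0.84 ± 0.186, and these calls held under all 16 alternatives. Insig2 changed by 0.69 ± 0.241 (edgeR adjusted p = 0.035) and lost the call without CM replicate 1 or 4 or EM replicate 2 or 4, with adjusted p up to 0.125. Ggps1 had 4.22, 4.7, 7.82 and 6.88 CPM in EM livers, against 9.09, 9.49, 9.03 and 7.41 CPM in CM livers, ranges that overlap (-0.56 ± 0.194, edgeR adjusted p = 0.0315), and it lost the call without any 1 of 5 libraries.

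Whether the MI763F effect differed with EE was tested as an interaction, and 0 of 28 genes passed with edgeR or DESeq2, while 6 had an unadjusted p under 0.05. Over all genes 0.132% passed and 13.6% had an unadjusted p under 0.05. The interaction was positive for 24 of 28 genes, with a median of 0.61. Tm7sf2 had the smallest adjusted p (1.09 ± 0.379, edgeR adjusted p = 0.209), and Insig2 had a negative value (-0.88 ± 0.34, edgeR adjusted p = 0.259). The CM libraries, replicate 2 included, enter these values, and without replicate 2 the median was 0.40 and 0 genes passed with edgeR, 10 having an unadjusted p under 0.05. Without EM replicate 1 the median was 0.72 and 0 passed, 11 having an unadjusted p under 0.05. With all libraries, 4 of 8 hepatocyte markers had an unadjusted edgeR p under 0.05 for the interaction, all positive. The median of the 8 was 0.42, and their part was not tested.

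Pathways next to cholesterol synthesis were followed through further lists. Their counts for EV against CV stand beside the 25.5% of all genes that were higher and 24.9% lower. For EM against EV, counts past the threshold stand beside 1.69% of all genes, and those with an unadjusted p beside 12.7%. All 6 genes that supply electrons to the sterol oxidases fell in EV livers against CV livers. Por, the P450 reductase that serves Cyp51 and Sqle, averaged 290 ± 33.6 CPM in EV livers and 732 ± 98.6 CPM in CV livers (SD, n = 4 each; log2 fold change -1.34 ± 0.129, edgeR adjusted p = 8.63e-07). Cyb5a, the cytochrome b5 used by desaturases such as Sc5d, changed by -0.92 ± 0.0973 (edgeR adjusted p = 2.02e-06). In EM livers against EV livers 2 of the 6 passed, both higher: Cyb5a, with 1620 ± 204 CPM in EM livers and 1150 ± 77.9 CPM in EV livers (0.49 ± 0.0968, edgeR adjusted p = 0.0208), and Pgrmc1, a heme-binding partner of P450 enzymes, with 624 ± 29.8 CPM in EM livers and 462 ± 46 CPM in EV livers (0.43 ± 0.101, edgeR adjusted p = 0.0434). Both also passed without EM replicate 1 and without CM replicate 2.

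Of 5 genes for acetyl-CoA and acetoacetyl-CoA supply 3 fell in EV livers against CV livers. Acss2, the acetate-activating synthetase, averaged 14.6 ± 1.1 CPM in EV livers and 164 ± 32.2 CPM in CV livers (log2 fold change -3.49 ± 0.543, edgeR adjusted p = 0.000119), and Aacs, which activates acetoacetate, changed by -2.20 ± 0.463 (edgeR adjusted p = 0.00125). In EM livers Acss2 averaged 36 ± 13.2 CPM, a log2 difference from EV livers of 1.30 ± 0.509 that did not pass (edgeR adjusted p = 0.278), and Aacs differed by 0.88 ± 0.453. With edgeR 0 of the 5 passed in that comparison and 1 had an unadjusted p under 0.05.

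Genes of fatty acid synthesis, which SREBP1c drives, fell too. Of 13 genes 10 fell in EV livers against CV livers, with a median of -1.55. Fads1, a fatty acid desaturase, averaged 49.9 ± 6.74 CPM in EV livers and 299 ± 23.1 CPM in CV livers (-2.58 ± 0.222, edgeR adjusted p = 2.95e-07), and Mlxipl, the carbohydrate-response factor ChREBP, changed by -1.39 ± 0.142 (edgeR adjusted p = 1.35e-06). In EM livers against EV livers 12 of 13 were positive and 1 passed: Fads1, with 93 ± 14.4 CPM in EM livers (0.90 ± 0.212, edgeR adjusted p = 0.0455). Elovl6, a fatty acid elongase, differed by 1.28 ± 0.36 (edgeR adjusted p = 0.0947) and passed without CM replicate 2 (0.0344). Fads1 passed with CM replicate 2 left out and with EM replicate 1 left out, and 2 genes of the list passed in each fit. Over all genes 320 of 12948 passed in the former and 445 of 12945 in the latter. CM replicate 2 was low here too, with a sum of 1600 CPM against 2190 to 4630 CPM in the other CM libraries.

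Of the remaining lists, only that of ubiquitin ligases and partners had all its EV against CV calls in 1 direction. Some shares of these lists were near those of all genes, 25.5% higher and 24.9% lower, and others were not. Of 14 genes of the non-sterol isoprenoid branches 5 rose and 3 fell in EV livers against CV livers, among them Rabggta, a Rab prenyltransferase subunit, at -0.97 ± 0.102 and Srd5a3, a reductase of dolichol synthesis, at 0.60 ± 0.104. In EM livers against EV livers 0 of these 14 passed with edgeR and 3 had an unadjusted p under 0.05, with Pdss1, a subunit that makes the coenzyme Q side chain, at -0.95 ± 0.251 and Pdss2, its partner, at 0.43 ± 0.158. Of 8 ubiquitin ligases and partners that act on sterol enzymes 2 fell, a share close to that of all genes, including March6, a ligase of the endoplasmic reticulum known to degrade squalene epoxidase, at -0.73 ± 0.0775. Between EM and EV livers 0 of the 8 passed with edgeR and 1 had an unadjusted p under 0.05, with Erlin2, a membrane scaffold, at -0.25 and March6 at 0.12. Of 9 genes of the LXR arm and sterol export 2 rose and 5 fell, including Lcat, the plasma cholesterol acyltransferase, at -1.05 ± 0.119 and Abcg5, a sterol exporter to bile, at -0.98 ± 0.141. Between EM and EV livers 0 of the 9 passed with edgeR and 1 had an unadjusted p under 0.05, with Scarb1, the HDL receptor, at -0.23 and Lcat at 0.20.

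Of 14 genes of intracellular sterol transport and storage 6 rose and 2 fell in EV livers against CV livers, where 25.5% of all genes were higher and 24.9% lower. Soat1, the cholesterol esterifying enzyme found in macrophages and many other cells, rose to 12.3 ± 3.36 CPM in EV livers, against 1.53 ± 0.371 CPM in CV livers (3.00 ± 0.358, edgeR adjusted p = 6.43e-06), while its hepatocyte counterpart Soat2 fell, as described. Macrophage markers moved the same way as Soat1, and their part was not tested. Osbp, an oxysterol-binding lipid exchanger, changed by 0.66 ± 0.0882 (edgeR adjusted p = 1.83e-05). Between EM and EV livers 0 of the 14 passed with edgeR and 3 had an unadjusted p under 0.05, with Gramd1c, a sterol transfer protein of membrane contact sites, at 0.34 and Stard5, a relative of Stard4, at 0.28.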

How the data were processed

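Per the labels' protocols, TRIzol-extracted liver RNA was enriched for poly(A) and turned into libraries with an NEBNext Ultra kit. GRCm39, STAR and Salmon appear in the submitters' processing notes with neither version nor role. How reads were counted, on which annotation and with which strand setting was not given in the sources used here. In the table the authors deposited, 13006 genes have estimated counts in 16 libraries, all whole numbers. They are not plain reads: among 731 genes at 0 in at least 1 library, of which 82.9% had an exon length, the median smallest nonzero value was 51 under 500 bases of exon and 1 over 4000 bases. This is the pattern of values divided by gene length. The exact scaling is not given, so levels were not compared between genes. The values were tested as deposited, without rounding, as if they were read counts. The effect of the scaling on the tests was not examined.

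Sample titles gave the groups and replicate numbers. Genes were filtered with filterByExpr (12918 left), normalised by TMM and modelled over all 16 libraries by glmQLFit of edgeR 4.0.16 (R 4.3.3) with robust set, giving each group 1 coefficient and leaving 12 residual degrees of freedom. P-values from quasi-likelihood tests were adjusted by Benjamini-Hochberg over all genes, with a threshold of 0.05. Errors beside log2 values are standard errors. Simulated counts with known changes in a small share of genes were used to check the fit. They held no broad shift between groups, so they could not check the scaling between EE-treated and other livers.

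The members and the other gene lists were chosen with earlier results of these data known. Every member may be named; of each other list the 2 genes lowest in p for EV vs CV, and the 2 lowest for EM vs EV, are named, except that a result the rule would name is not reported here. Genes that overlap members are named for that reason alone. Krt7 and Cftr, from the cholangiocyte list, are not used here. Symbols, exon lengths for that check and exon overlaps came from the GENCODE mouse M21 annotation, of an earlier build than the counts (12692 identifiers matched), and promoter windows from RefSeq on GRCm38.p6. An MI763F dose beyond the one used, mentioned in the labels, was not analysed here.

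Alternatives were RLE factors, library totals, no filter, at least 1 CPM in 8 or more libraries, DESeq2 1.42.0, limma 3.58.1 with a trend (prior count 2), a fit to the compared groups alone, a replicate block, and each library left out. Leaving CM replicate 2 or EM replicate 1 out of fits for other groups, and for the other lists, was chosen after seeing the data. Figures used matplotlib 3.10.9 in Python 3.11.15.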

Additional observations from a re-analysis of the deposited data

Results flagged for a closer look

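In 112 groups of 4 libraries (28 genes in 4 groups), 5 had a library far from the other 3 by Dixon's test, and chance alone flags about 1 group in 20. Squalene epoxidase, Sqle, was flagged in both MI763F groups, each time for the library that was lowest across most synthesis genes. It had 80.2 CPM in EM replicate 1, against 105 to 109 CPM in the other EM libraries, and 45.9 CPM in CM replicate 2, against 126 to 128 CPM in the other CM libraries. Hsd17b7 had 19.4 CPM in CM replicate 2, against 40.6 to 43.3 CPM in the other CM libraries. Pmvk had 59.1 CPM in EV replicate 1, against 39.6 to 41.1 CPM in the other EV libraries. Ebp had 258 CPM in CV replicate 1, against 279 to 283 CPM in the other CV libraries.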

How the results depend on the processing

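The counts of genes past the threshold stayed within 1.5 times for EV vs CV, CM vs CV and the interaction under every alternative run. For EM vs EV, where edgeR passed 0 genes, DESeq2 passed 2, a fit to the groups compared alone passed 6, and leaving out single libraries passed 0 to 4. Over all genes the main fit passed 218 of 12918 in EM vs EV, DESeq2 559 of 12903 and the groups alone 228 of 12800. For EM vs CV, where 10 passed, the groups compared alone gave 16 and leaving out single libraries 7 to 18. For EM vs CM, where 9 passed, leaving out single libraries gave 7 to 18. The upper ends of these ranges came from leaving out CM replicate 2. That library enters EM vs EV and EM vs CV only through the shared fit, and the medians there stayed at 0.58 and -0.49 without it. Why it stood apart was not tested. Values of genes that had passed kept their direction throughout: 669 also kept their call and 41 lost it. Among 127 values that had not passed, 40 changed sign under at least 1 alternative, 0 of them with a size of at least 0.5. Under the replicate block 22 genes passed for EV vs CV, 10 for EM vs CM, 0 for CM vs CV, 0 for EM vs EV, 10 for EM vs CV and 0 for the interaction. Deviations of the 24 same-numbered pairs correlated between -0.052 and 0.096. Differently numbered pairs were not computed for reference, so these values cannot decide whether replicate numbers pair the samples. The total of CM replicate 2, 17841692 estimated counts, lay within the range of the other libraries of its group.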
